A study of Mus musculus with 4 samples.

Results

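To understand how B16F10 melanoma cells grown with fibroblasts differed between 3D and 2D culture, the spheroid was compared with the 2D co-culture. B16F10 is a pigmented mouse melanoma line and NIH/3T3 is a mouse fibroblast line. Both libraries came from wild-type B16F10 cells that, per the study's methods, carried a green fluorescent protein, were grown with NIH/3T3 cells and were sorted as green, living cells. The spheroid cells had grown in hanging drops, in which cells settle into a multicellular aggregate, and the 2D co-culture cells on a flat surface. Levels in B16F10 cells grown alone in 2D (2D monoculture) and in a subcutaneous B16F10 tumor of 1-year-old female C57BL/6 mice are given beside them. The label of the tumor library describes frozen tumor tissue, whereas the methods describe cells sorted from tumors. Which of these was sequenced is not settled here, so its levels may include cells other than melanoma cells. The fluorescent B16F10 line is a single engineered line. Neither the day of the sort nor the medium or seeding ratio of the 2D co-culture is given in the sources used here. The spheroid was made with red fluorescent NIH/3T3 cells per the methods, which name no such label for the 2D co-culture. How cells were separated for the sort is not described in the methods. Geometry, time, medium, seeding ratio, fibroblast label and cell separation therefore cannot be told apart. Per the methods, the drops were seeded with more fibroblasts than melanoma cells and kept in DMEM, and the cells alone in RPMI.

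Each source is 1 library, so there is no replicate check, no p-value is given, and all intervals are 95% intervals that cover counting error only. They treat reads as independent, but reads without molecular identifiers are not independent molecules, so the intervals may be too narrow even for that. The 2 libraries compared held 150028663 reads for the spheroid and 118896900 for the 2D co-culture, of 4 libraries in all. Levels are CPM, reads per 1000000 reads after TMM scaling, which assumes that most genes do not differ. Of 24527 genes in the table, 9007 (36.7%) had a mean of at least 10 CPM over the 2 libraries, and these were compared. They held 98.8% of the reads in the spheroid and 98.7% in 2D co-culture. The log2 ratio is that of spheroid to 2D co-culture with 1 CPM added to each level, and a gene is counted as higher or lower when it differed by more than 2-fold on this scale. Folds of single genes are ratios of the CPM levels with nothing added. At the filter, Sept6 was just inside with a log2 ratio of -0.78, and Heatr5a was just outside with a log2 ratio of -0.52.

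Spheroids differ from monolayers in ways that are known to reach the transcriptome. Oxygen, glucose and amino acids must diffuse from the rim, and cells that lack oxygen stabilise HIF transcription factors, which act on genes of angiogenesis and glycolysis. Cells that lack amino acids, or carry other stress, phosphorylate the initiation factor eIF2, which lowers bulk translation and raises translation of the transcription factor ATF4. Cells that leave the cycle turn down E2F targets, the genes of DNA replication.

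Of the genes compared, 888 (9.86%) were more than 2-fold higher in the spheroid and 753 (8.36%) more than 2-fold lower. Counts past 2-fold within the lists below are to be read beside these shares. Of 13 genes of the ATF4 and CHOP stress response, 11 were higher, as were 5 of 18 targets of hypoxia. Of 20 genes of DNA replication 18 were lower, as were 12 of 18 of ribosome biogenesis and 9 of 19 of mitosis. The lowest ratios were those of Col1a2, Lox, Bgn and Acta2, genes of collagen fibers and myofibroblasts, each of which had under 3 CPM in cells grown alone. The median log2 ratio of all genes was 0.01, the quartiles were -0.49 and 0.50, and 81.8% of genes lay within 2-fold. The genes counted as higher held 12.8% of the spheroid's reads and 4.96% of the co-culture's, and those counted as lower held 3.24% and 8.95%. More than 8-fold differences were found for 22 higher and 30 lower genes. None of these lower genes had 10 CPM in both libraries, and 5 of the higher genes did, so most of the largest ratios had a low level on one side. Of the 8382 genes that had 10 CPM in both libraries, 703 were higher and 585 lower. The others passed the filter through the library in which they were high.

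**Figure D1:**
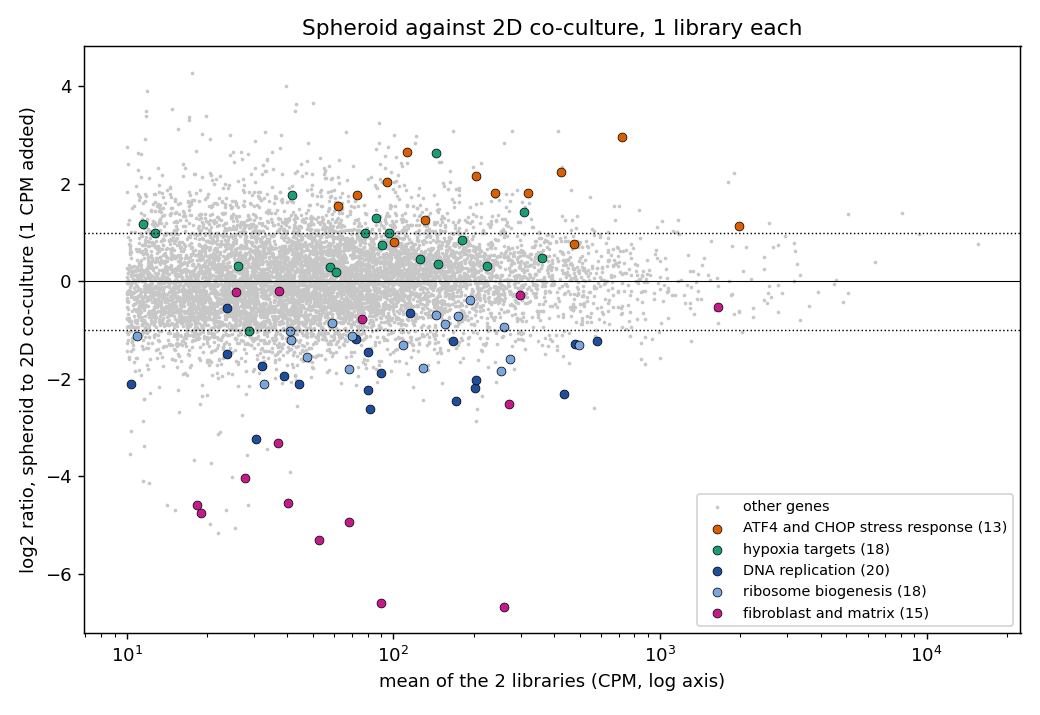
Log2 ratio of spheroid to 2D co-culture (y axis, 1 CPM added) against the mean CPM of both libraries (log x axis) for the 9007 genes compared, with 5 gene lists in color and dotted lines at 2-fold. All 13 ATF4 and CHOP genes lie above 0 and all 20 DNA replication genes below 0, and 9 fibroblast and matrix genes lie under -3.

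To show letters that factors of these gene groups are known to bind, promoter windows of RefSeq on GRCm38.p6 (the assembly of mm10), from 250 bases before to 50 bases after each start, were searched on both strands. A window was found for 7123 of the genes compared. The letters TGATGNAA, the core of the response element that ATF4 binds with C/EBP proteins, were in the windows of 4 of 13 ATF4 and CHOP genes (Atf3, Trib3, Chac1 and Nupr1) and of 4 of 14 genes of amino acid synthesis and transport (Asns, Pycr1, Slc7a11 and Slc1a4), against 2.41% of all genes compared. They were also in 5 of 12 windows of tRNA synthetases (Aars, Gars, Iars, Tars and Yars), and in 2.96% of genes counted as higher and 2.85% of those counted as lower. Stretches before the start are shown for the 3 genes of the first list and the 2 of the second that had the largest ratios, a single window and a match before the start, with the match in capitals (TTGCATCA is the same element read on the other strand). They lie at chr1:191183396-191183483, minus strand, for Atf3, at chr2:119351009-119351096, plus strand, for Chac1, at chr7:126625533-126625620, minus strand, for Nupr1, at chr11:120643804-120643891, minus strand, for Pycr1, and at chr3:50443614-50443700, minus strand, for Slc7a11, and each is written 5′ to 3′ on the strand of its gene.
Atf3: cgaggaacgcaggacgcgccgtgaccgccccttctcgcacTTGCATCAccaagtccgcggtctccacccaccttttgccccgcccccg
Chac1: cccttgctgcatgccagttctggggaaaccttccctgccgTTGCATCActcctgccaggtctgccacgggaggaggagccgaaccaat
Nupr1: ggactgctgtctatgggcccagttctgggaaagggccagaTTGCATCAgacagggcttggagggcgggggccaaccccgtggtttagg
Pycr1: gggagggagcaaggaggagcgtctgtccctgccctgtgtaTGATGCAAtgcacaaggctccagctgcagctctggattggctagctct
Slc7a11: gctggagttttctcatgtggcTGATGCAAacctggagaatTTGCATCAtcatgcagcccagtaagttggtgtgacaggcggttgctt
Slc7a11 held the element in both orientations within this stretch, with 39 bases between the nearer match and the start.

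The letters ACGTG, the core of the hypoxia response element, were in the windows of 12 of 15 hypoxia targets (80%), against 31.3% of all genes. It was in 28.3% of the windows of genes counted as higher and in 33.1% of those counted as lower. The E2F letters TTTNNCGC, a motif chosen after the values were seen, were in 7 of 15 windows of replication genes (Mcm3, Mcm5, Mcm6, Mcm7, Cdc6, Cdt1 and Tyms), in 17.1% of windows of genes counted as lower, in 7.19% of those counted as higher and in 10.8% of all. The stretches of Car9 and Egln3 (hypoxia) and of Cdc6 and Mcm5 (E2F) are shown, chosen in the same way, at chr4:43506968-43507025, plus strand, at chr12:54204059-54204124, minus strand, at chr11:98907973-98908060, plus strand, and at chr8:75109320-75109407, plus strand.
Car9: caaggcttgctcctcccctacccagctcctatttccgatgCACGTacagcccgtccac
Egln3: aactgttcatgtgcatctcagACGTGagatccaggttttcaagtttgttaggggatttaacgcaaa
Cdc6: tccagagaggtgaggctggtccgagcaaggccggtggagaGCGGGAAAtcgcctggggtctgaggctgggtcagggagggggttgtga
Mcm5: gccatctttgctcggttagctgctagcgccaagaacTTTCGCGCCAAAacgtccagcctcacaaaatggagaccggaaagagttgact
In Mcm5, matches on both strands overlap by 4 letters. The letters TGACGTCA (cyclic AMP response element) were in 3.81% of windows of higher genes, in 3.36% of lower and in 3.80% of all, and TGANTCA (AP-1) in 9.31%, 4.19% and 5.52%. The ER stress response element, CCAAT and CCACG with 9 letters between them, was in 0.239% of all windows. These matches describe letters only, and binding was not measured. Lists such as the hypoxia targets were put together from known targets, so their larger shares may follow from how the lists were chosen.

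To check the labels, markers of melanocytes were read first. All 8 were above 1 CPM in both libraries and summed to 11419.6 CPM in spheroid cells and 15306 CPM in 2D co-culture. Of these, 6 were lower in the spheroid and 2 higher, by any amount. Mlana, a melanosome antigen, had 159.8 CPM in spheroid cells and 970.5 CPM in 2D co-culture, and Dct, an enzyme of melanin synthesis, 2986 and 4246 CPM. Pmel, the protein of melanosome fibrils, had 3478 CPM in spheroid cells and 3198 CPM in 2D co-culture, and Sox10, a neural crest factor of melanocytes, 902 and 871 CPM. The 14 fibroblast markers summed to 99.5 CPM in spheroid cells, 1005 CPM in 2D co-culture, 62.02 CPM in 2D monoculture and 3749 CPM in the tumor. All 14 were lower in the spheroid than in 2D co-culture, 7 were under 1 CPM in spheroid cells against 2 in 2D co-culture, and none was at 0 reads. Markers of myeloid cells summed to 26.2 CPM in spheroid cells and 9.40 CPM in 2D co-culture, markers of endothelium to 4.50 and 1.20 CPM, and markers of skeletal muscle to 12.4 and 10.1 CPM. Most of the myeloid sum in spheroid cells was Cd68, a lysosomal protein also read in 2D monoculture (27.5 CPM). Cd68 had 22.5 CPM in spheroid cells and 3.69 CPM in 2D co-culture, whereas the leukocyte phosphatase Ptprc had 0.0734 and 0.0961 CPM. In the tumor, markers of myeloid cells, endothelium and skeletal muscle summed to 1400, 223 and 4599 CPM.

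Collagen and matrix genes held the lowest ratios. Of 23 fibroblast and matrix genes, 15 passed the filter, 10 were more than 2-fold lower in the spheroid and none was higher, with a median log2 ratio of -4.05. Only 6 had 10 CPM in both libraries, so the others passed through the 2D co-culture, where they were high. Col1a2, a chain of type-I collagen, had 4.05 CPM in spheroid cells, 514 CPM in 2D co-culture, 2.97 CPM in 2D monoculture and 622 CPM in the tumor, and was 127-fold lower in the spheroid than in 2D co-culture (interval 117 to 138). Col6a1 and Col6a2, chains of the type-VI collagen stained in the study, had 3.38 and 2.36 CPM in spheroid cells against 133 and 78.03 CPM in 2D co-culture, and 0.161 and 0.0281 CPM in 2D monoculture. The spheroid lay between the culture without fibroblasts and the 2D co-culture for these chains. The paper stained this collagen as protein in sections of whole spheroids. There it was clear with fibroblasts present and barely detectable in spheroids of B16F10 cells alone. The values here are RNA of cells sorted as B16F10, so they are not a measure of that deposit.

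Enzymes and partners of fibrils had the same order. Lox, which crosslinks collagen and elastin, had 0.867 CPM in spheroid cells, 179 CPM in 2D co-culture and 0.00702 CPM in 2D monoculture, and was 207-fold lower in the spheroid than in 2D co-culture (interval 173 to 250.2). Its relative Loxl1 was 67.5-fold lower (interval 53.5 to 86.2), the proteoglycan Bgn 63.4-fold lower (interval 55.5 to 72.7) and the fibril collagen Col5a2 87.95-fold lower (interval 67.9 to 116). Col3a1 was 23.3-fold lower and Col1a1 11.4-fold lower. Thy1, a surface marker of fibroblasts, was under the filter with 0.286 CPM in spheroid cells and 12.5 CPM in 2D co-culture. Sparc and Fn1, which B16F10 cells grown alone also expressed, had smaller ratios. Sparc, a secreted collagen-binding protein, had 1341 CPM in spheroid cells, 1945 CPM in 2D co-culture and 2114 CPM in 2D monoculture, with a log2 ratio of -0.54. Fn1, fibronectin, was 5.81-fold lower in the spheroid (80 against 465 CPM, interval 5.69 to 5.93) and had 184 CPM in 2D monoculture. In bulk RNA, fewer cells of a type and less RNA per cell cannot be told apart, and whether the collagen reads came from B16F10 or from NIH/3T3 cells was not tested.

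**Figure D2:**
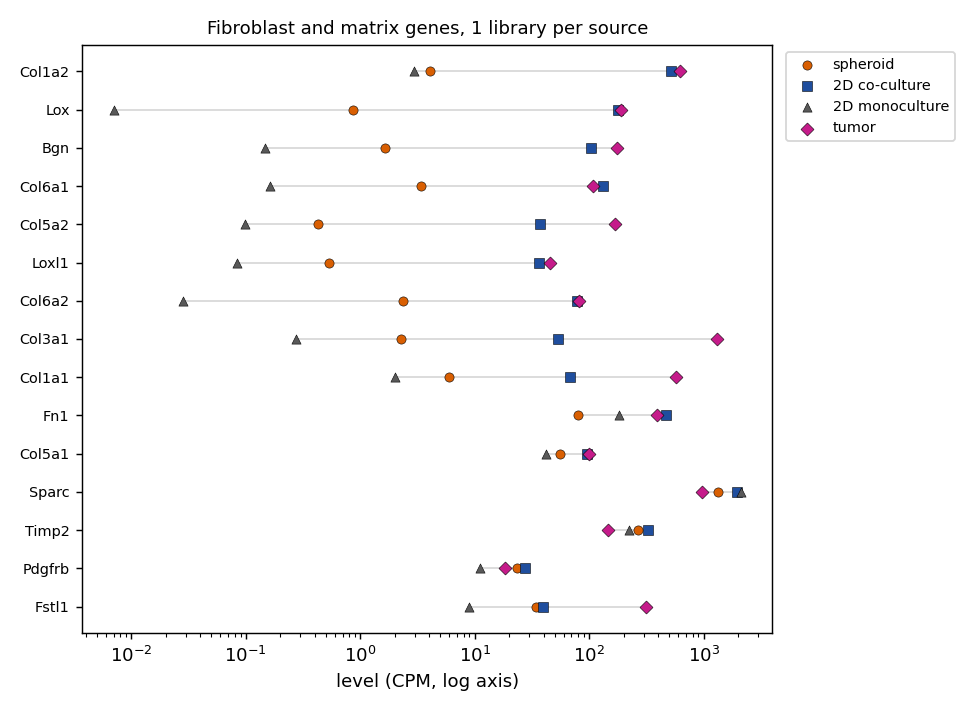
Level in CPM (log x axis) of the 15 fibroblast and matrix genes that passed the filter, 1 point per library. From Col1a2 down to Col1a1 the spheroid lies between the 2D monoculture and the 2D co-culture, whereas Col5a1, Sparc, Timp2, Pdgfrb and Fstl1 differ by less than 2-fold between spheroid and 2D co-culture.

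The other lowest ratios were of genes with little or no level in 2D monoculture. Of the 15 lowest ratios, those that were neither collagen nor crosslinking genes were Bgn, described above, and Acta2, Fbln2, Gas1, Il1rl1, Prl2c2, Pcdhgc3, Dlk1 and Fgfr1. Acta2, smooth muscle actin of myofibroblasts, had 0.250 CPM in spheroid cells and 43.6 CPM in 2D co-culture. Dlk1, a surface protein of preadipocytes, had 1.37 and 55.7 CPM and no read in 2D monoculture. Fbln2, a fibulin of elastic fibers, had 0.536 and 50.3 CPM, and Il1rl1, the receptor of interleukin-33, 0.198 and 30.01 CPM. Gas1, a growth arrest protein, had 0.323 and 40.6 CPM, and the growth factor receptor Fgfr1 0.404 and 23.8 CPM. Prl2c2, proliferin, had 0.830 and 46.2 CPM and 0.0246 CPM in the tumor, but near-identical copies can share its reads. For Pcdhgc3, a protocadherin, 77% of exonic bases are shared with other genes, so its value is uncertain. Of all 30 genes that were more than 8-fold lower, 16 were under 1 CPM in 2D monoculture, and none of the 30 had 10 CPM in both libraries, so the filter admitted them through the 2D co-culture. When genes under 10 CPM in 2D monoculture were left out, 757 genes were higher and 708 lower, against 888 and 753 with them.

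Genes of the ATF4 and CHOP stress response were higher in the spheroid. Of 16 genes, 13 passed the filter, all 13 were above 0 and 11 were more than 2-fold higher, with a median log2 ratio of 1.81. For all 13, the spheroid had the highest level of the 4 libraries, which was the case for 41.7% of all genes compared. Atf4 itself had 2713 CPM in spheroid cells, 1229 CPM in 2D co-culture, 671 CPM in 2D monoculture and 407 CPM in the tumor, and was 2.21-fold higher in the spheroid than in 2D co-culture (interval 2.19 to 2.22). Its target Ddit3, which encodes the proapoptotic factor CHOP, had 499, 141, 168 and 58.9 CPM in the same order. The spheroid was highest for both genes and the tumor lowest.

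Genes that act back on this pathway were among those with the larger ratios. Trib3, a pseudokinase that binds ATF4 and CHOP, had 1279 CPM in spheroid cells and 163 CPM in 2D co-culture and was 7.83-fold higher (interval 7.71 to 7.94). Ppp1r15a, the GADD34 subunit that directs phosphatase to eIF2, had 699.8 and 148 CPM and was 4.73-fold higher (interval 4.65 to 4.80). Chac1, which degrades glutathione, was 4.50-fold higher (335 against 74.5 CPM, interval 4.39 to 4.60). Atf3 and Nupr1, whose stretches were printed with that of Chac1 because their ratios were large, were 6.42-fold higher and 4.18-fold higher. Atf3, a repressor of the same family, had 195 CPM in spheroid cells, 30.3 CPM in 2D co-culture and 173 CPM in 2D monoculture, so that the spheroid and the 2D monoculture lay close together, above the 2D co-culture. Ddit4 and Sesn2, which restrain mTORC1, were 3.53-fold higher (interval 3.46 to 3.60) and 2.40-fold higher (interval 2.34 to 2.46). The smallest ratios were those of Atf5 (0.77) and Cebpg (0.81). The factors Cebpb and Nfil3 had log2 ratios of 1.55 and 1.77. The other 3 listed genes did not pass the filter.

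**Figure D3:**
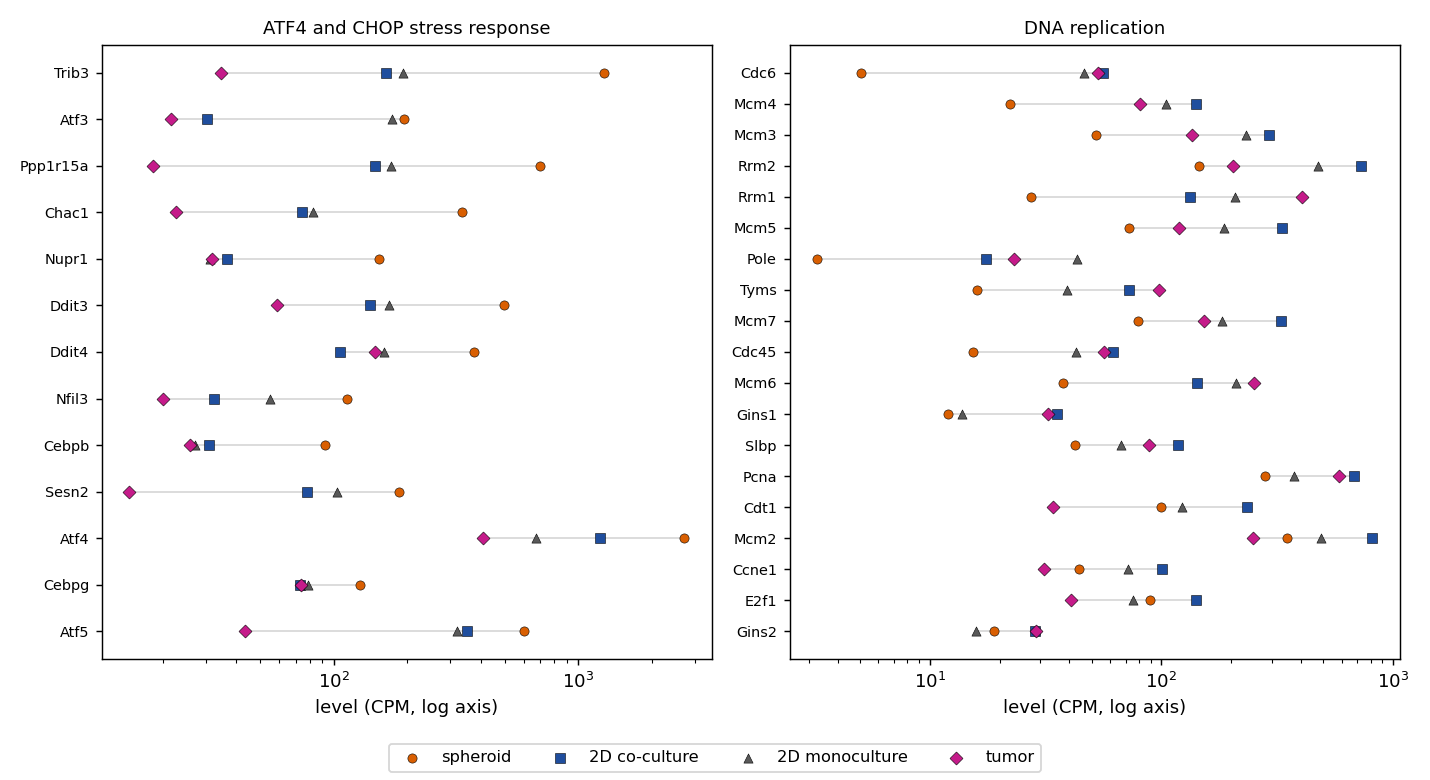
Level in CPM (log x axis) of the 13 ATF4 and CHOP genes (left) that passed the filter and of 19 of the 20 DNA replication genes that did (right), 1 point per library, with the largest difference between spheroid and 2D co-culture at the top. The spheroid is the highest of the 4 libraries for all 13 genes on the left and the lowest for 14 of the 19 on the right.

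Not every branch of the amino acid and protein stress response had this direction. Of 17 genes of amino acid synthesis and transport that passed the filter, 6 were higher and 1 was lower, with a median log2 ratio of 0.39. The higher genes were Pycr1, which makes proline, and the transporters Slc6a9, Slc1a4, Slc1a5, Slc3a2 and Slc7a11, of which Slc6a9 shares 39% of its exonic bases with other genes. Pycr1 had 74.8 CPM in spheroid cells and 15.97 CPM in 2D co-culture and was 4.68-fold higher (interval 4.45 to 4.92). Slc7a11, the cystine transporter, was 2.05-fold higher (234 against 115 CPM), but it was still higher in 2D monoculture with 419.7 CPM. Enzymes of serine synthesis did not share this direction. Psat1 was 2.42-fold lower (130.2 against 314 CPM, interval 2.37 to 2.46), and Phgdh and Psph had log2 ratios of -0.03 and -0.05. Asns, asparagine synthetase, had a log2 ratio of 0.39.

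The 20 cytosolic tRNA synthetases had a median log2 ratio of -0.21, with only Hars past 2-fold (2.13-fold lower). Of the 20 genes of ER chaperones and the unfolded protein response, 1 was lower and none was higher, with a median of -0.22. Hspa5, the chaperone BiP, had a log2 ratio of -0.24, Pdia3, a disulfide isomerase, was 2.22-fold lower (interval 2.20 to 2.24), and the highest values were those of Dnajb9 (0.81) and Xbp1 (0.80). Among 13 heat shock genes, with a median of 0.29, the inducible HSP70 genes Hspa1a and Hspa1b were 6.31-fold higher and 6.80-fold higher, and the mitochondrial chaperonin Hspd1 was 2.34-fold lower and Hspa4 2.19-fold lower. Hspa1a and Hspa1b are near-identical, so the split of their reads is uncertain. Hsf1, the heat shock factor, had a log2 ratio of 0.48.

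Hypoxia targets leaned to the spheroid. Of 20 genes, 18 passed the filter, 17 of them were above 0, 5 were more than 2-fold higher and 1 was lower, with a median log2 ratio of 0.79. Vegfa, the angiogenic growth factor, had 453 CPM in spheroid cells, 167 CPM in 2D co-culture, 107 CPM in 2D monoculture and 177 CPM in the tumor and was 2.71-fold higher (interval 2.66 to 2.75). Ndrg1, a stress-responsive protein, had 249.6 and 39.3 CPM in spheroid and 2D co-culture and was 6.35-fold higher (interval 6.15 to 6.55). Car9, a carbonic anhydrase that exports acid, had 65.2 and 18.3 CPM and was 3.56-fold higher (interval 3.39 to 3.73), below its 175 CPM in the tumor. Egln3, a prolyl hydroxylase that marks HIF for degradation, was 2.46-fold higher and Mxi1, a MYC antagonist, 2.50-fold higher. Slc2a1, the glucose transporter, and Pfkfb3, a glycolytic activator, had log2 ratios of 0.32 and 0.20. The gene counted as lower was the histone demethylase Kdm3a (2.10-fold lower, interval 2.00 to 2.20).

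In glycolysis, the higher genes were an enolase and a pair of aldolases. Eno2, the neuronal enolase, had 216 CPM in spheroid cells, 26.6 CPM in 2D co-culture, 59.5 CPM in 2D monoculture and 6.59 CPM in the tumor, and was 8.14-fold higher (interval 7.84 to 8.45). The aldolases Aldoc and Aldoa were 5.37-fold higher (interval 5.15 to 5.60) and 2.64-fold higher (interval 2.63 to 2.65), and Aldoa, with a difference of 7265 CPM, had the second largest gain in CPM of all genes compared. Gapdh, Pkm and Ldha, enzymes of the lower pathway and of lactate, had log2 ratios of 0.00, -0.06 and -0.44, and Hk2, hexokinase, was 2.07-fold lower (interval 2.01 to 2.12). The median of the 18 genes was 0.19. Eno1, another enolase on the list, did not pass the filter, with 1.15 CPM in spheroid cells and 0.908 CPM in 2D co-culture. Why its level was so low was not tested. None of 26 subunits of oxidative phosphorylation was past 2-fold, with a median of 0.28 and 20 of 26 above 0.

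Genes of DNA replication were lower in the spheroid. Of 22 genes, 20 passed the filter, all 20 were below 0 and 18 were more than 2-fold lower, with a median log2 ratio of -1.92. The spheroid was the lowest of the 4 libraries for 15 of them, against 28.3% of all genes compared. Cdc6, which loads the replicative helicase, had 5.06 CPM in spheroid cells, 55.8 CPM in 2D co-culture, 46.2 CPM in 2D monoculture and 53.4 CPM in the tumor, and was 11.03-fold lower than in 2D co-culture (interval 10.2 to 11.95). The spheroid stood apart for Cdc6, whereas the other libraries lay close together.

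The 6 helicase subunits Mcm2 to Mcm7 were all lower. Mcm4 was 6.38-fold lower (22.2 against 142 CPM, interval 6.14 to 6.64), Mcm3 5.55-fold lower, Mcm5 4.59-fold lower, Mcm7 4.11-fold lower, Mcm6 3.78-fold lower and Mcm2 2.33-fold lower. Rrm2 and Rrm1, the subunits of ribonucleotide reductase, which makes deoxyribonucleotides, were 5.02-fold lower (145 against 728 CPM) and 4.86-fold lower (27.4 against 133 CPM). Tyms, thymidylate synthase, was 4.52-fold lower (16.01 against 72.4 CPM). Pcna, the sliding clamp, was 2.44-fold lower (interval 2.41 to 2.47). E2f1, a factor that acts on these genes, and Gins2 were within 2-fold, with log2 ratios of -0.66 and -0.56. Ccne2 and Pola1 did not pass the filter, with 1.52 and 2.65 CPM in spheroid cells and 15.5 and 8.29 CPM in 2D co-culture.

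Mitotic genes had smaller ratios. All 19 that passed the filter were below 0, 9 were more than 2-fold lower, and the median log2 ratio was -0.83. Bub1b, a checkpoint kinase, was 3.49-fold lower (18.7 against 65.2 CPM, interval 3.34 to 3.65) and Ccnb1, cyclin B1, 2.97-fold lower (25.8 against 76.6 CPM, interval 2.86 to 3.09). Mki67, the proliferation antigen, had a log2 ratio of -0.54 and Ube2c, a ubiquitin ligase partner of mitotic exit, -0.13. Cdkn1a, the inhibitor p21, had a log2 ratio of 0.66, within 2-fold.

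Genes of ribosome biogenesis, which process and assemble ribosomal RNA in the nucleolus, were lower too. All 18 that passed the filter were below 0 and 12 were more than 2-fold lower, with a median log2 ratio of -1.16. Dkc1, the pseudouridine synthase, was 4.56-fold lower (11.8 against 53.8 CPM, interval 4.32 to 4.82). The box C/D proteins Nop56 and Nop58 were 3.61-fold lower and 3.45-fold lower, and Polr1a, the large subunit of RNA polymerase I, was 3.57-fold lower (interval 3.45 to 3.70). Ncl and Npm1, nucleolar proteins, were 3.03-fold lower (136 against 411 CPM) and 2.47-fold lower (287 against 708 CPM). Myc, a factor that acts on these genes, was 2.08-fold lower (73.7 against 153 CPM, interval 2.03 to 2.13), although the 2D monoculture had 43.3 CPM. The ribosomal proteins themselves lay close to all genes: none of 27 was past 2-fold and the median was -0.19. The precursor Rn45s, read in spite of selection for polyadenylated RNA, had 3848 CPM in spheroid cells and 2027 CPM in 2D co-culture, and its part in these results was not tested.

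Genes of lipid synthesis leaned to the 2D co-culture. Of 11 genes of fatty acid synthesis, 3 were lower and none higher, with a median log2 ratio of -0.69. Fasn, fatty acid synthase, was 2.39-fold lower (499 against 1194 CPM, interval 2.37 to 2.41), the elongase Elovl6 3.26-fold lower and Acly, which supplies acetyl-CoA, 2.12-fold lower. Of 21 genes of cholesterol synthesis and uptake, 5 were lower, with a median of -0.12, and none was past 2-fold once genes of like GC content and length were compared. Among them, Hsd17b7, Idi1, Cyp51 and Lss, enzymes of the pathway, were 2.58-fold lower, 2.36-fold lower, 2.24-fold lower and 2.04-fold lower. Srebf2, the factor that acts on these genes, had a log2 ratio of 0.66.

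Several genes of contact between cells were lower. Of 11 genes of cell-cell adhesion, 6 were lower and 2 were higher, with a median log2 ratio of -1.20. Mcam, a melanoma adhesion molecule, had 56.6 CPM in spheroid cells, 355 CPM in 2D co-culture, 384 CPM in 2D monoculture and 107 CPM in the tumor, and was 6.27-fold lower (interval 6.12 to 6.43). N-cadherin, Cdh2, was 3.44-fold lower (37.8 against 130.1 CPM), its partner beta-catenin, Ctnnb1, 3.24-fold lower (413 against 1339 CPM) and alpha-catenin, Ctnna1, 2.33-fold lower. The gap junction protein Gja1 was 3.31-fold lower and L1cam 2.43-fold lower. The higher genes were Nectin2 (3.45-fold higher, interval 3.37 to 3.53) and plakoglobin, Jup (2.24-fold higher, interval 2.13 to 2.37). E-cadherin, Cdh1, was at 0.198 CPM in spheroid cells and 0.279 CPM in 2D co-culture.

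Of 21 genes of the actin cytoskeleton and focal adhesion, 6 were lower and 1 was higher, with a median log2 ratio of -0.62. The talin Tln2, which links integrins to actin, was 5.76-fold lower (5.90 against 33.98 CPM), with 82.2 CPM in 2D monoculture. The filamin Flna was 2.84-fold lower, vinculin, Vcl, 2.49-fold lower and the integrin Itgb1 2.09-fold lower. Other genes overlap 40% of the exonic bases of Vcl. Actb was at 0.00 on the log2 scale. Itga5, the fibronectin receptor subunit, was the higher gene (3.11-fold higher, 461 against 148 CPM). Of 12 targets of YAP and TEAD, Thbs1, Ctgf and Amotl2 were 19.2-fold lower, 4.17-fold lower and 2.08-fold lower, but the median was -0.19, with Cyr61 at 0.89. Thbs1 and Ctgf are also genes of fibroblasts, whose markers summed to 99.5 CPM in spheroid cells against 1005 CPM, and the part of those cells was not tested.

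Pigment genes had a few low ratios. Of 16 melanin and melanocyte genes, 3 were lower (18.75%) and none was higher, against 8.36% and 9.86% of all genes compared. The other 13 lay within 2-fold, a share close to the 81.8% of all genes compared, and the median log2 ratio was -0.06. Mitf, the master factor of the lineage, had 70.3 CPM in spheroid cells, 223 CPM in 2D co-culture, 416 CPM in 2D monoculture and 708 CPM in the tumor and was 3.18-fold lower (interval 3.10 to 3.25). Mlana, the antigen MART-1, was 6.07-fold lower (159.8 against 970.5 CPM, interval 5.98 to 6.16) and Mc1r, the melanocortin receptor, 2.06-fold lower (interval 2.01 to 2.12). Tyr, tyrosinase, had a log2 ratio of -0.10, Dct -0.51 and Tyrp1 -0.79. By reads, Tyrp1 had the largest loss of all genes compared, with 2455 CPM in spheroid cells and 4232 CPM in 2D co-culture.

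Among genes of fast signalling, 7 of 18 immediate early and ERK feedback genes were higher and 2 lower, with a median log2 ratio of 0.67. Dusp8, a phosphatase of stress kinases, was 6.15-fold higher (160.5 against 26.1 CPM, interval 5.92 to 6.40), Fos 3.91-fold higher (247 against 63.2 CPM), Jund 3.68-fold higher and Egr1 2.95-fold higher (168 against 56.96 CPM). Other genes overlap 53% of the exonic bases of Jund. The ERK feedback genes Spry2, Spry4, Dusp4 and Dusp6 had log2 ratios of 0.08, 0.14, 0.00 and 0.32, and the ETS factor Etv5 was 6.80-fold lower (2.97 against 20.2 CPM, interval 6.12 to 7.58). Of 14 p53 targets, 3 were higher (21.4%) and 1 lower (7.14%), against 9.86% and 8.36% of all genes compared, with a median of 0.32. Gadd45a, a growth arrest gene that ATF4 also acts on, had 499 CPM in spheroid cells and 58 CPM in 2D co-culture and was 8.60-fold higher (interval 8.38 to 8.82), Btg2 was 3.20-fold higher and Bbc3, PUMA, 3.18-fold higher. Mdm2, the p53 ligase, was 2.14-fold lower.

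Genes of iron, redox and autophagy were among the largest gains in CPM. Ferritin light chain, Ftl1, had 19613 CPM in spheroid cells, 11532 CPM in 2D co-culture, 5958 CPM in 2D monoculture and 3582 CPM in the tumor, the largest gain of all genes compared. Ferritin heavy chain, Fth1, had 12424, 6346, 3408 and 1471 CPM in the same order. Both lay within 2-fold, with log2 ratios of 0.77 and 0.97, and copies of ferritin genes can share their reads. Hmox1, which frees iron from heme, had 3123 and 670.2 CPM in spheroid and 2D co-culture and was 4.66-fold higher (interval 4.62 to 4.70), the only one of 15 NRF2 genes past 2-fold (median log2 ratio 0.23). Nqo1 and Txnrd1, textbook NRF2 targets, had log2 ratios of -0.30 and -0.67. Sqstm1, the autophagy receptor p62, with 21% of its exonic bases in other genes, had 7323 and 2792 CPM and was 2.62-fold higher (interval 2.61 to 2.63). Of 20 autophagy and lysosome genes 5 were higher and none lower, with a median of 0.30 (3 were higher once genes of like GC content and length were compared), and besides Sqstm1 these were the ATG8 proteins Map1lc3a (3.67-fold higher) and Gabarapl1 (2.54-fold higher), the lysosomal factor Tfeb (2.67-fold higher) and the kinase Ulk1 (2.07-fold higher), of which Tfeb and Ulk1 were not past 2-fold in that comparison. Chchd10, a mitochondrial cristae protein, was 4.10-fold higher (2901 against 708 CPM) and Gstp1, a glutathione transferase with a close copy, 2.28-fold higher (3549 against 1555 CPM). Losses in reads were led, after Tyrp1, by the elongation factor Eef1a1 (4143 against 5560.5 CPM), prothymosin Ptma (1329.7 against 2743 CPM), Dct, the tubulins Tuba1b and Tubb5, the desaturase Scd2, Hspd1, the initiation factor Eif4g1 (2.99-fold lower, interval 2.96 to 3.01) and Ctnnb1.

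About as many interferon and antigen presentation genes failed the filter as passed it. Of 21 genes, 10 passed the filter, 5 were higher and none lower, with a median log2 ratio of 1.02 that was 0.41 when all members with a read were kept. H2-K1, a class I chain, had 191 CPM in spheroid cells, 34.6 CPM in 2D co-culture, 44.1 CPM in 2D monoculture and 550.4 CPM in the tumor and was 5.52-fold higher (interval 5.34 to 5.71), although reads can be shared with H2-D1 (log2 ratio 0.77). Rsad2, the antiviral enzyme viperin, was 3.14-fold higher and the tetherin Bst2 2.10-fold higher. The ubiquitin-like Isg15 was 5.19-fold higher and the chemokine Cxcl10 3.53-fold higher, with 30.2 and 76.9 CPM in spheroid cells. The factor Irf1 had a log2 ratio of -0.29. The spheroid was the highest of the 4 libraries for none of these 10 genes.

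Of the 15 highest ratios, 13 were of genes under 10 CPM in 2D co-culture. Cd74, the invariant chain of class II presentation, had the highest, with 34.4 CPM in spheroid cells, 0.821 CPM in 2D co-culture, 5.78 CPM in 2D monoculture and 154 CPM in the tumor (41.9-fold higher, interval 34.2 to 51.96). It was followed by the RNA-binding protein Zfr2 (19.98-fold higher, 75.04 against 3.76 CPM), the phosphatase Ppm1j (38.4-fold higher, 23.2 against 0.603 CPM), the clock output factor Dbp (14.4-fold higher, 93.4 against 6.47 CPM), glycogen phosphorylase Pygm (14.4-fold higher, 80.8 against 5.60 CPM), the aldo-keto reductase Akr1b7 (18.8-fold higher), Baiap2l2 (20.8-fold higher), the small GTPase Rasd2 (12.9-fold higher, 79.7 against 6.18 CPM), Irf5, Fxyd1, the prostacyclin receptor Ptgir, Tnfrsf9, the ADP-ribose hydrolase Macrod1 (9.99-fold higher, 160.2 against 16.04 CPM), the microtubule-end protein Camsap3 (11.8-fold higher) and Gadd45a. Fxyd1, a regulator of the sodium pump, had 37.1 CPM in spheroid cells, 2.65 CPM in 2D co-culture and 0.856 CPM in 2D monoculture, and Ptgir 32.01, 2.19 and 0.884 CPM. Tnfrsf9, a costimulatory receptor, was 13.7-fold higher and Irf5, an interferon regulatory factor, 18.1-fold higher. Akr1b7 has close relatives with which reads can be shared, and other genes overlap 29% of the exonic bases of Dbp.

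**Figure D4:**
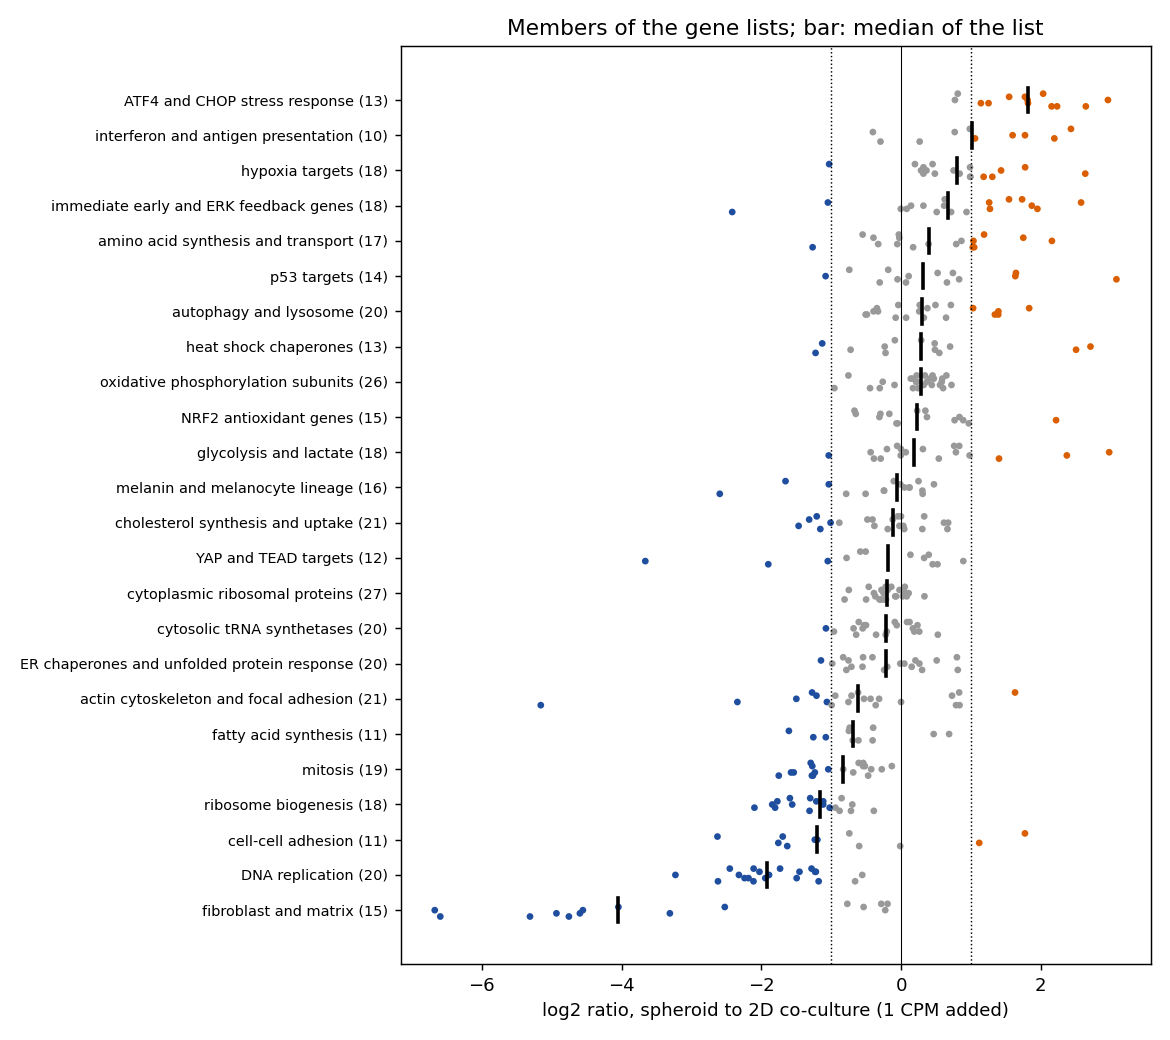
Log2 ratio of spheroid to 2D co-culture (x axis, 1 CPM added) for the members of 24 gene lists that passed the filter (number in parentheses), with the median of each list as a black bar, members more than 2-fold higher in orange and more than 2-fold lower in blue. Medians run from -4.05 for fibroblast and matrix genes to 1.81 for ATF4 and CHOP genes, and the cytoplasmic ribosomal proteins and oxidative phosphorylation subunits lie within 2-fold.

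The ratio went with the base composition of the transcripts. Over 8984 genes with a GENCODE transcript (99.7%), Spearman's correlation across genes between log2 ratio and GC content of the longest transcript was 0.43, and -0.24 with its length. Genes are not independent replicates, all of them share the same 2 libraries, and this correlation is a description. The median log2 ratio was -0.31 in the lowest of 10 classes of GC content, where 12 were counted as higher and 93 as lower, and 0.57 in the highest class, where 256 were higher and 12 lower. Genes counted as higher had a median GC content of 55.7% and a median length of 2957 bases, and those counted as lower 47.2% and 4163 bases. The ATF4 and CHOP genes had a median GC content of 55.7% and the replication genes 49.2%. After the median ratio of genes of like GC content and length was removed, 641 genes were higher and 553 lower. By this measure 10 of 13 ATF4 and CHOP genes were higher (median 1.44), 6 of 18 hypoxia targets were higher and none lower (median 0.77), and 19 of 20 replication genes (median -1.72), 12 of 18 ribosome biogenesis genes and 5 of 19 mitotic genes were lower. Atf4 and Sesn2 were no longer past 2-fold. Of the other calls named, those of Psat1, Slc1a4, Slc1a5, Slc3a2, Pdia3, Hspd1, Hspa4, Hk2, Aldoa, Kdm3a, Mdm2, Bst2, Jup, Ctnna1, Vcl, Itgb1 and the genes of cholesterol synthesis also ended. The clock genes Per1, Nr1d1 and Tef, named further below, were left out of this check.

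**Figure D5:**
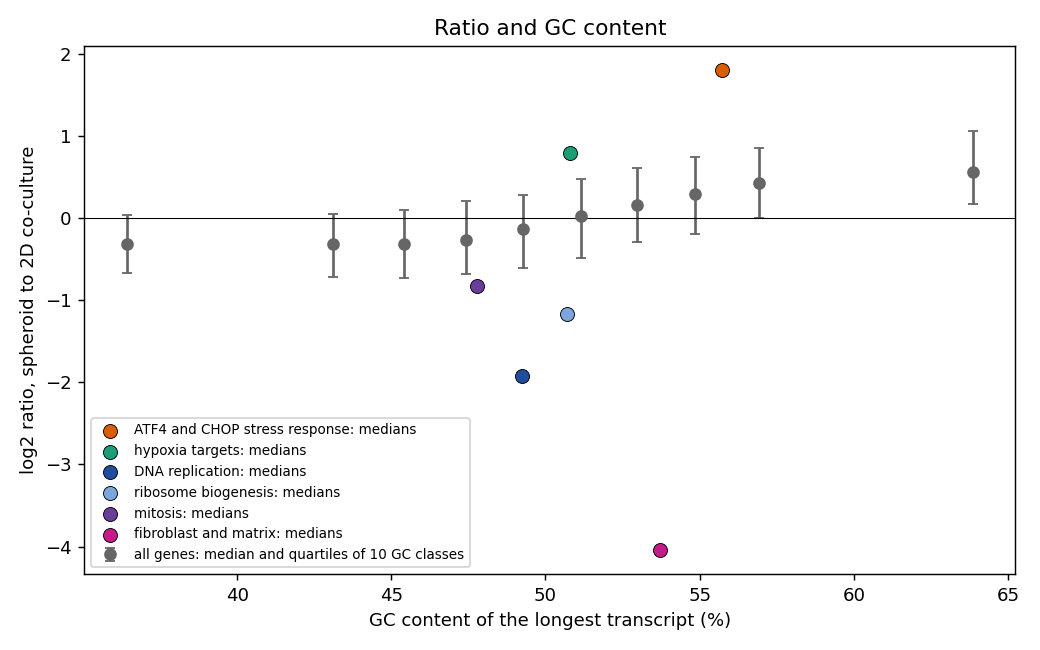
Median log2 ratio of spheroid to 2D co-culture with quartiles (y axis) for 10 classes of genes by GC content of the longest transcript (x axis, %), and medians of 6 gene lists in color. The class medians run from -0.31 to 0.57, and the medians of all 6 lists lie outside the quartiles of genes of like GC content.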

How the data were processed

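RNA of 4 libraries was sequenced as paired reads from polyadenylated RNA. The authors deposited whole-number read counts per gene symbol without normalization. The submitters' processing notes name Trimmomatic, STAR, featureCounts and mm10, without versions, and whether counting used strand is not given in the sources used here. Every column was matched to its source by its label. The 2 libraries compared held 150028663 and 118896900 reads, so that 3 reads, which a count of 0 allows, came to 0.0220 and 0.0262 CPM.

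Counts were scaled to CPM by edgeR 4.0.16 (R 4.3.3), with the TMM method run on all 4 libraries. Genes that averaged 10 CPM or more over spheroid and 2D co-culture were compared by the log2 ratio with 1 CPM added and counted past 2-fold, in Python 3.11.15. No test was made, since each source is 1 library. Intervals of folds come from the exact Clopper-Pearson interval of the share of reads in the spheroid. The calculation was tested on counts simulated with counting error only. These held no spread between cultures and no trend with GC content, so the arithmetic alone was checked. Alternatives were size factors of DESeq2 1.42.0, TMM factors of the 2 libraries, total counts, upper quartiles, a pseudocount of 0.1 CPM, other filters, and removal of the median ratio in 10 classes of GC content by 10 of length (GENCODE M21, GRCm38).

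Genes named are the 15 highest and 15 lowest ratios, the 10 largest gains and losses in CPM, and, of 24 lists and 5 marker lists, members past 2-fold, the extremes and the genes a list is named for; predicted gene models were not described. Some further members within 2-fold, such as Tyr, Mki67 and Cdkn1a, were chosen after their values were seen. Members and lists were chosen with earlier results of these data known. Some single genes are not reported here.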

Additional observations from a re-analysis of the deposited data

How the results depend on the processing

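No paired analysis was possible because each source has 1 library, and no library could be left out. A count was held to be the same if it stayed within 1.5 times its value, and the median of a list if it stayed within 1.5-fold. Over 9 alternatives, genes counted as higher ranged from 641 (GC and length correction) to 1251 and genes counted as lower from 553 (the same correction) to 1133 (no filter beyond 1 read), the latter more than 1.5 times the 753 reported. With total counts 742 were higher and 870 lower, which turns the order of both counts, since this scaling moves every log2 ratio by -0.085. The median of fibroblast and matrix genes moved to -2.52 with no filter beyond 1 read, to -3.39 with a mean of at least 1 CPM and to -0.54 with at least 10 CPM in the 2D monoculture, where most collagen genes drop out, and that of interferon and antigen presentation genes to 0.41 with no filter beyond 1 read, because more members with few reads enter. The other 229 values of these 2 counts and of the medians of 24 lists were the same. The counts within lists were recomputed with the GC and length correction only, which took lower genes of mitosis from 9 to 5 and of cholesterol synthesis from 5 to 0, and higher genes of amino acid synthesis and transport from 6 to 3 and of autophagy and lysosome from 5 to 3. Per1, Nr1d1 and Tef, named only with the circadian clock below, were left out of the check of single genes. No other gene named past 2-fold changed its sign under any alternative that gave it a value. With the GC and length correction, 127 of 162 such genes were still past 2-fold in the same direction. With 1 library a side, the spread between cultures is unknown, and the intervals cover counting error only.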

Other observations

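Genes of the circadian clock, a list chosen after Dbp was seen among the highest ratios, were uneven. Of 16 genes, 11 passed the filter, 5 were more than 2-fold higher in the spheroid and 0 lower. The higher genes were output and repressor genes, with Dbp at 93.4 CPM against 6.47 CPM in 2D co-culture, Per1 at 168 against 42.6 CPM (3.94-fold higher, interval 3.82 to 4.07), Nr1d1, the repressor REV-ERB alpha, at 50.8 against 14.8 CPM (3.43-fold higher, interval 3.25 to 3.62), Tef at 266 against 85.4 CPM (3.11-fold higher) and Nfil3 at 113 against 32.5 CPM (3.49-fold higher). Within 2-fold on the scale with 1 CPM added lay the activator Clock (10.96 against 14.3 CPM) and the repressors Cry1 (33.4 against 22.02 CPM) and Cry2 (27.8 against 13.6 CPM). With nothing added, Cry2 was 2.05-fold higher (interval 1.93 to 2.18). Also within 2-fold were the paralog Nr1d2 (25.3 against 24.3 CPM), Bhlhe40 (58.2 against 84.4 CPM) and Bhlhe41 (302 against 203 CPM). The 2D monoculture had 12.4 CPM of Dbp and 52.5 CPM of Per1. The time of day of collection is not given in the sources used here.

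Other genes of class II presentation did not share the level of Cd74. H2-Aa, H2-Ab1 and H2-Eb1 had 0.220, 0.117 and 0.176 CPM in spheroid cells and 0.306, 0.183 and 0.148 CPM in 2D co-culture, against 194, 94.7 and 111 CPM in the tumor, and their activator Ciita had 0.0441 and 0.00873 CPM in the cultures compared. These genes were chosen after the values were seen.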
